A study of Mus musculus with 6 samples.

Results

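Glucose breakdown and the fate of pyruvate were followed through 33 genes, chosen by name from the 41457 genes of the deposited tables. They encode glucose transporters, the enzymes of glycolysis, the enzymes that set the level of fructose-2,6-bisphosphate, lactate dehydrogenases and lactate carriers, and the proteins that bring pyruvate into mitochondria and feed or block pyruvate dehydrogenase. A row of that name existed for 32 of the 33, and *Aldoa* was matched by its identifier (ENSMUSG00000030695). Messenger RNA came from thymocytes negative for CD4 and CD8 (double-negative, DN), an early stage of T cell development before either co-receptor is displayed, enriched by removing CD4- and CD8-bearing cells with magnetic beads. The 3 Nc1Bio libraries came from mice with an added bacterial artificial chromosome (BAC) that holds the murine *Nfatc1* locus and gives NFATc1/A a biotin tag, on top of the biotin ligase BirA expressed from Rosa26. The 3 BirA libraries, whose genotype is labelled WT, came from mice with the biotin ligase and no BAC. Both groups thus share BirA and a C57/B6 background, and the methods give an age of 4 to 6 weeks with sex- and age-matched mice, all untreated as far as the labels say. The BAC copy is driven by the regulatory elements of its own locus in whichever cells use them, so the added NFATc1 is not limited to thymocytes by design. The labels do not say that the libraries came from separate animals, and p-values therefore measure the spread between these libraries, which may be partly technical.

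In glycolysis a cell splits glucose into pyruvate, gaining ATP and building blocks. Pyruvate can then be reduced to lactate and exported, or carried into mitochondria and oxidised by pyruvate dehydrogenase, which pyruvate dehydrogenase kinases switch off. Dividing thymocytes and activated lymphocytes are known for a high flux to lactate, and the factors MYC and HIF-1α are known to drive many genes of the pathway, while NFAT factors are known to take part in metabolic reprogramming of activated T cells.

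The libraries held between 11845952 and 15393763 unique gene reads, which were 64.1% to 76.0% of the total gene reads. *Nfatc1* reached 573 ± 23.2 CPM (the usual count-per-mega-read unit, on the TMM-scaled library size) in Nc1Bio and 126 ± 27.9 CPM in BirA (mean ± SD, 3 libraries per group), with 2.19 on the log2 scale (SE 0.16) and an adjusted p of 0.0141 in edgeR, so the labels fit the overexpression. DN thymocyte genes were present in all 6 libraries, among them *Dntt*, with 2576 ± 325 CPM in Nc1Bio, against 2044 ± 145 CPM in BirA (mean ± SD, 3 libraries per group). Of the 18 genes of that list 14 had a log2 fold change above 0 (median 0.21; 0 called by edgeR, and 3 by DESeq2, of which *Ptcra* and *Notch3* were higher and *Ptprc* lower). Reads of other cells differed widely between libraries. Summed erythroid markers ranged from 17667 to 97664 CPM in Nc1Bio and from 20080 to 66151 CPM in BirA, and summed granulocyte markers from 408 to 5806 CPM in Nc1Bio and from 484 to 9644 CPM in BirA. All 9 tested B cell markers, all 9 of NK and innate lymphoid cells, all 9 of macrophages and all 10 of CD4 or CD8 thymocytes had log2 fold changes below 0 (medians -1.66, -2.39, -0.98 and -0.93; 0 called by edgeR, and 4, 2, 0 and 4 by DESeq2). Their part in the values below was not tested. In bulk RNA of this kind, fewer cells of a type and less RNA per cell cannot be told apart.

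No gene of the pathway passed the test between Nc1Bio and BirA. The filter on low counts kept 32 of the 33, and edgeR called 0 of them at an adjusted p under 0.05, where it called 0.00818% of the 12224 genes tested (*Nfatc1* alone). DESeq2 called 0 of the 32, against 2.68% of all genes (2.66% in total gene reads, again with 0 members), and limma-voom called 0, against 0.00818%. At an unadjusted p under 0.05 edgeR gave 2 of 32 (6.25%), *Ldhb* and *Pdk1*, both with higher values in Nc1Bio, against 12.0% of all genes (4.31% higher and 7.66% lower). DESeq2 gave 4 at that level (12.5% of the members and 12.5% of all genes), and limma-voom gave 3 (9.38%, against 11.5%). With total in place of unique gene reads edgeR again called 0, against 0.00764% of 13095 genes, and gave 2 at an unadjusted p under 0.05, against 11.5%.

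The fold changes were small and centred on 0. The median log2 fold change of the 32 genes was 0.016, beside -0.0026 over all genes tested, and 17 lay above 0 and 15 below. For 29 of the 32 the log2 fold change was within 0.5 of 0, a range that held 81.6% of all genes. The 95% interval lay wholly within 0.5 of 0 for 15 of the 32 and for 35.2% of all genes, and within 1 of 0 for 25. Thus for 15 genes, each taken by itself, the interval bounds the difference between these libraries at less than 0.5 on the log2 scale. For the other 17 a change of that size is not bounded. The intervals are not corrected for the number of genes. The median SE was 0.15 for the members and 0.18 for all genes.

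**Figure D1:**
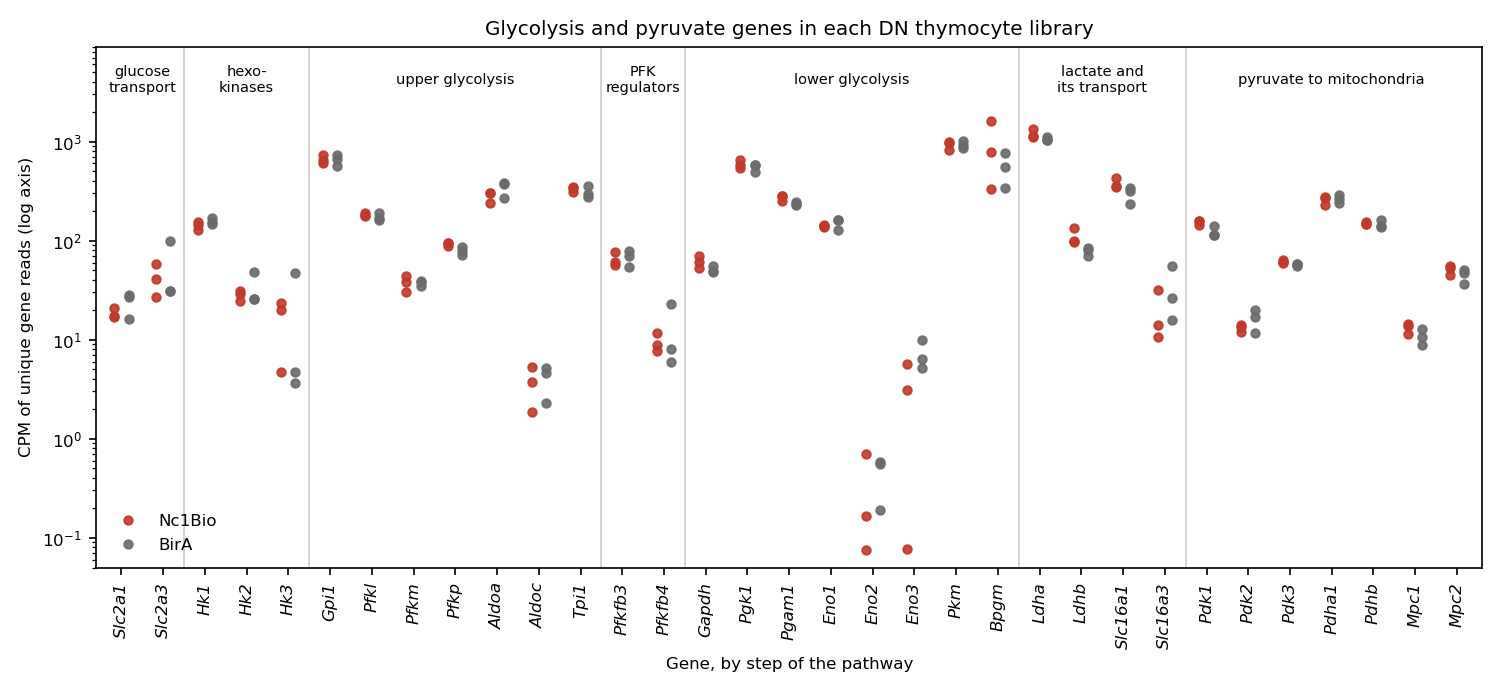
CPM of unique gene reads on a log axis (vertical) for each of the 33 genes, ordered by step of the pathway (horizontal), with 1 point per library, Nc1Bio in red and BirA in grey. *Ldha* lies at 1031 CPM or more in all 6 libraries and *Eno2* below 1 CPM, and the points of the 2 groups lie close together for most genes.

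**Figure D2:**
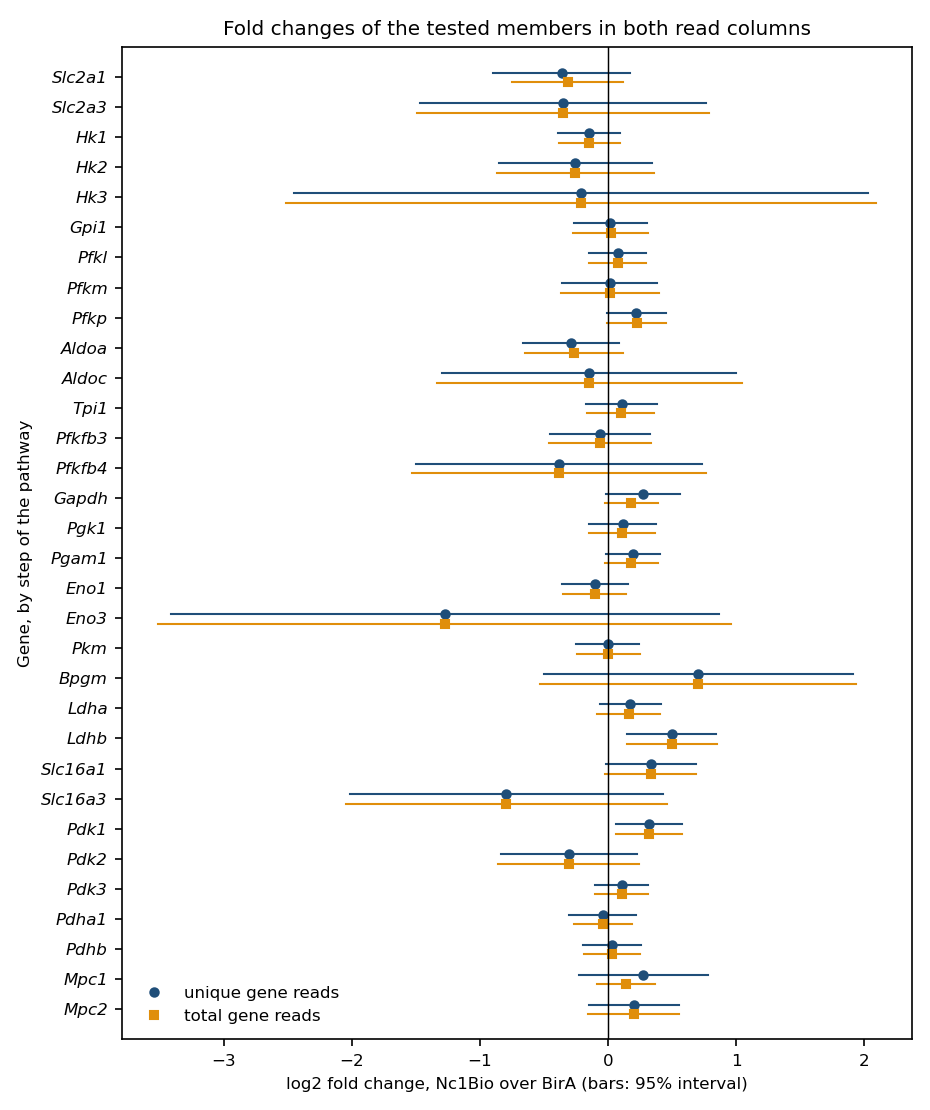
Log2 fold change of Nc1Bio over BirA (horizontal axis) for the 32 tested genes (vertical axis), from unique gene reads (blue circles) and total gene reads (orange squares), with 95% intervals as bars. The interval of *Ldhb* runs from 0.15 to 0.84 and that of *Pdk1* from 0.061 to 0.58 in unique gene reads, and the widest bars belong to *Hk3* and *Eno3*.

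Levels between genes were compared as TPM (reads per exon length, scaled to a fixed sum per library), computed from total exon reads and exon length, because CPM favours long transcripts. *Gapdh*, the glyceraldehyde-3-phosphate dehydrogenase, had the highest median with 659 TPM (445 to 825 over the 6 libraries), followed by lactate dehydrogenase A (*Ldha*) with 591 TPM (439 to 748). These neighbours changed places, with *Ldha* first in Nc1Bio replicate 3 and BirA replicate 3 and *Gapdh* first in the other 4. Next came *Pgk1*, the first ATP-forming kinase of the pathway, with a median of 448 TPM (305 to 578) and *Pkm*, the pyruvate kinase, with 402 TPM (259 to 515), which exchanged order in BirA replicate 1. *Bpgm* ran from rank 3 to rank 11, and stood above both in Nc1Bio replicate 3. Together the 4 genes of highest median held 50.6% to 54.3% of the summed TPM of the 33 genes. Total exon reads include reads with several placements. Only 3.04% of the *Gapdh* gene reads were unique, with 79.4% for *Ldha*, 80.0% for *Pgk1* and 66.5% for *Pkm*. The levels of these 4, and above all of *Gapdh*, are therefore uncertain. *Pgam1* (249 TPM), *Bpgm* (237 TPM), *Tpi1* (197 TPM), *Aldoa* (176 TPM), *Eno1* (159 TPM) and *Gpi1* (155 TPM) followed by median, and their ranges over the 6 libraries overlapped. At the low end stood the brain-type aldolase gene *Aldoc* with a median of 1.87 TPM and the neuronal enolase gene *Eno2* with 0.098 TPM. Every TPM value was pulled down where globin reads took a large share, so TPM serves here for the order of genes within a library and not for the comparison of groups.

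Isoforms of the same enzyme stood at unlike levels. Among the phosphofructokinase genes, *Pfkl* (41.3 TPM median) stood above *Pfkm* (16.8 TPM) and *Pfkp* (9.23 TPM), and among the hexokinase genes *Hk1* (27.0 TPM) stood above *Hk2* (6.82 TPM) and *Hk3* (3.73 TPM), with *Hk3* above *Hk2* in Nc1Bio replicates 2 and 3 and in BirA replicate 2. Of the pyruvate dehydrogenase kinase genes, *Pdk3* (33.6 TPM) and *Pdk1* (24.9 TPM) stood above *Pdk2* (6.68 TPM). *Slc16a1*, which encodes the lactate carrier MCT1, had 120 TPM, and *Slc16a3*, which encodes MCT4, had 5.28 TPM.

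The 2 members of lowest p, *Ldhb* and *Pdk1*, act where pyruvate becomes lactate or enters mitochondria, but other genes of these steps had values on the other side of 0, with log2 fold changes of -0.79 for *Slc16a3* and -0.31 for *Pdk2*. *Ldhb* (ENSMUSG00000030246, chromosome 6, 142490249 to 142507957, GRCm38) encodes the heart-type subunit of lactate dehydrogenase, the form known for turning lactate into pyruvate. It had 97.3, 135 and 99.5 CPM in the 3 Nc1Bio libraries, against 69.2, 85.0 and 80.7 CPM in the 3 BirA libraries. Every Nc1Bio library lay above every BirA library, and Nc1Bio replicate 2 stood highest. The mean was 111 ± 21.2 CPM in Nc1Bio, against 78.3 ± 8.21 CPM in BirA (mean ± SD, 3 libraries per group), a 1.41-fold difference. The log2 fold change was 0.50 (SE 0.15, 95% interval 0.15 to 0.84), with an unadjusted edgeR p of 0.0108 and an edgeR adjusted p of 0.300, so it did not pass. DESeq2 gave an adjusted p of 0.0652. The unadjusted p stayed under 0.05 in all 32 alternatives tried, and the adjusted p ranged from 0.0611 to 0.646 over them. Without Nc1Bio replicate 2, the highest library, the log2 fold change was 0.33.

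*Pdk1* (ENSMUSG00000006494, chromosome 2, 71873224 to 71903858) encodes a pyruvate dehydrogenase kinase, which holds pyruvate back from oxidation and is known as a HIF-1α target. It had 158, 158 and 142 CPM in Nc1Bio, against 114, 113 and 140 CPM in BirA. The groups did not overlap, but the lowest Nc1Bio library exceeded BirA replicate 3 by under 3 CPM. The log2 fold change was 0.32 (SE 0.11, 95% interval 0.061 to 0.58, 1.25-fold), with an unadjusted edgeR p of 0.0216 and an edgeR adjusted p of 0.357. The unadjusted p was under 0.05 in 22 of 32 alternatives. In 1 of them, DESeq2 without BirA replicate 3, *Pdk1* passed with a DESeq2 adjusted p of 0.0044. That fit called 735 of 12674 genes. Over all 32 alternatives the adjusted p of *Pdk1* ranged up to 0.689.

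*Slc16a1* (ENSMUSG00000032902, chromosome 3, 104638668 to 104658462) had 425, 347 and 355 CPM in Nc1Bio, against 237, 317 and 340 CPM in BirA. The groups did not overlap, and BirA replicate 1 lay well below the other 5 libraries. Its log2 fold change was 0.34 (SE 0.15, 95% interval -0.017 to 0.69, adjusted p = 0.443 in edgeR), and 0.19 without BirA replicate 1. *Ldha* (ENSMUSG00000063229, chromosome 7, 46841475 to 46855627), the muscle-type subunit known for forming lactate, had 1109, 1133 and 1342 CPM in Nc1Bio, against 1031, 1038 and 1103 CPM in BirA. The gap between the groups was narrow, and in total gene reads they overlapped. The log2 fold change of *Ldha* was 0.18 (SE 0.10, 95% interval -0.063 to 0.41, adjusted p = 0.536 in edgeR), and 0.086 without Nc1Bio replicate 3. *Pdk3*, a further kinase of the same family, had 61.3, 63.9 and 58.7 CPM in Nc1Bio, against 55.3, 57.7 and 57.7 CPM in BirA, with a log2 fold change of 0.11 (SE 0.089).

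Promoter windows of 300 bases are shown for *Ldhb* and *Pdk1*, which had the lowest p among the members, and for *Slc16a1* and *Ldha*, the lactate exporter and producer whose groups also did not overlap, so that the letters known from HIF and MYC binding can be read beside the values. They are RefSeq sequences on GRCm38.p6, from 250 bases before to 50 after the start, 5′ to 3′ on the gene's strand, and capitals mark matches on either strand to ACGTG (the core of the HIF site), to CACGTG (the E-box bound by MYC, which contains ACGTG on both strands) or to TGGAAA (the NFAT core). The windows are chr6:142507908-142508207 on the minus strand for *Ldhb*, chr2:71872974-71873273 for *Pdk1*, chr3:104638414-104638713 for *Slc16a1* and chr7:46845554-46845853 for *Ldha*, the last 3 on the plus strand. For *Pdk1* and *Ldha* the first of 2 annotated windows is given.
Ldhb: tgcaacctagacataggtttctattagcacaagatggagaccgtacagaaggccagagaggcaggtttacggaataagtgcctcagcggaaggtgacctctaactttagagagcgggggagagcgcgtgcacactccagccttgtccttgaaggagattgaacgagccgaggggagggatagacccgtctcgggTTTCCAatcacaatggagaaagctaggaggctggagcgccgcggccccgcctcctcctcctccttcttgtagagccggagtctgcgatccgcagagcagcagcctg
Pdk1: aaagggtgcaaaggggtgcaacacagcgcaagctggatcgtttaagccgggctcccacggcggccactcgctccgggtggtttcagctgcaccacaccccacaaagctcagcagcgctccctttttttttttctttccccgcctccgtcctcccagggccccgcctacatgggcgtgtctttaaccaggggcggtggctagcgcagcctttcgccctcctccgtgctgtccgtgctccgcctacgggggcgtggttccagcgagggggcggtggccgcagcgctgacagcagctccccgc
Slc16a1: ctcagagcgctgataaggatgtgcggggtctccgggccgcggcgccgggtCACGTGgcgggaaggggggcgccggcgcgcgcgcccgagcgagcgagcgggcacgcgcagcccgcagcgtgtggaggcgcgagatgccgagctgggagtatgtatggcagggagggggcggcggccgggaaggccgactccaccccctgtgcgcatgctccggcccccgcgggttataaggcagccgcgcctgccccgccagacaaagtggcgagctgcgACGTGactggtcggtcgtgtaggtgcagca
Ldha: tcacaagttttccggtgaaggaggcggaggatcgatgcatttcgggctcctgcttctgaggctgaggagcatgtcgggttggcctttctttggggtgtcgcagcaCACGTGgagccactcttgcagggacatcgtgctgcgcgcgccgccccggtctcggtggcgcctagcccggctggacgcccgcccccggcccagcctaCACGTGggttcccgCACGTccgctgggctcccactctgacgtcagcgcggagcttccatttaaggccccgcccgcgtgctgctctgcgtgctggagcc
The *Ldha* window held CACGTG at 2 places and a further ACGTG, and the *Slc16a1* window held 1 CACGTG and 1 further ACGTG. The *Ldhb* window held 1 TGGAAA on the opposite strand and no ACGTG, and the *Pdk1* window held none of the 3 motifs. A window was found for 32 of the 33 genes (all but *Slc2a3*). ACGTG stood in at least 1 window of 18 of them (56.2%), against 21.8% of 27025 genes with windows of the same length, CACGTG in 5 (15.6%, against 8.09%) and TGGAAA in 7 (21.9%, against 23.9%). Members had up to 4 windows each, and the shares were not matched for number of windows, base composition or expression. They therefore do not show whether a motif is enriched in these genes. A match is a run of letters and not a site of binding, and the 2 genes of lowest p are among those without ACGTG in the printed window.

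In all, the Nc1Bio libraries lay wholly above the BirA libraries for 7 of the 32 genes (21.9%), against 8.45% of all genes in that direction, and wholly below for 0, against 9.98%. In either direction the share over all genes was 18.4%. The 7 were *Ldhb*, *Pdk1*, *Slc16a1*, *Ldha*, *Pdk3*, *Pfkp* and *Pgam1*. *Pfkp*, the platelet-type phosphofructokinase, had 94.0, 87.6 and 95.2 CPM in Nc1Bio, against 87.1, 78.4 and 72.0 CPM in BirA, where the closest pair differed by under 1 CPM (log2 fold change 0.22, SE 0.10). *Pgam1*, the phosphoglycerate mutase, had 249, 284 and 282 CPM in Nc1Bio, against 235, 231 and 245 CPM in BirA (log2 fold change 0.20, SE 0.091). None of the 7 passed in edgeR, and 5 of them had an unadjusted edgeR p above 0.05. In total gene reads the number was again 7 (21.9%, against 8.42% higher over all genes), with *Gapdh* in place of *Ldha*. The locus of *Pfkp* overlaps *Pitrm1* on the other strand, which had 12906 unique reads and more than *Pfkp* itself in every library. The kit named in the labels does not mark strand, so reads of the 2 cannot be told apart where they overlap. The same holds for *Pfkm* with *Senp1* (8056 unique reads, more than the gene's own), *Gapdh* with *Iffo1* (872 unique reads) and *Tpi1* with *Spsb2* (349 unique reads).

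**Figure D3:**
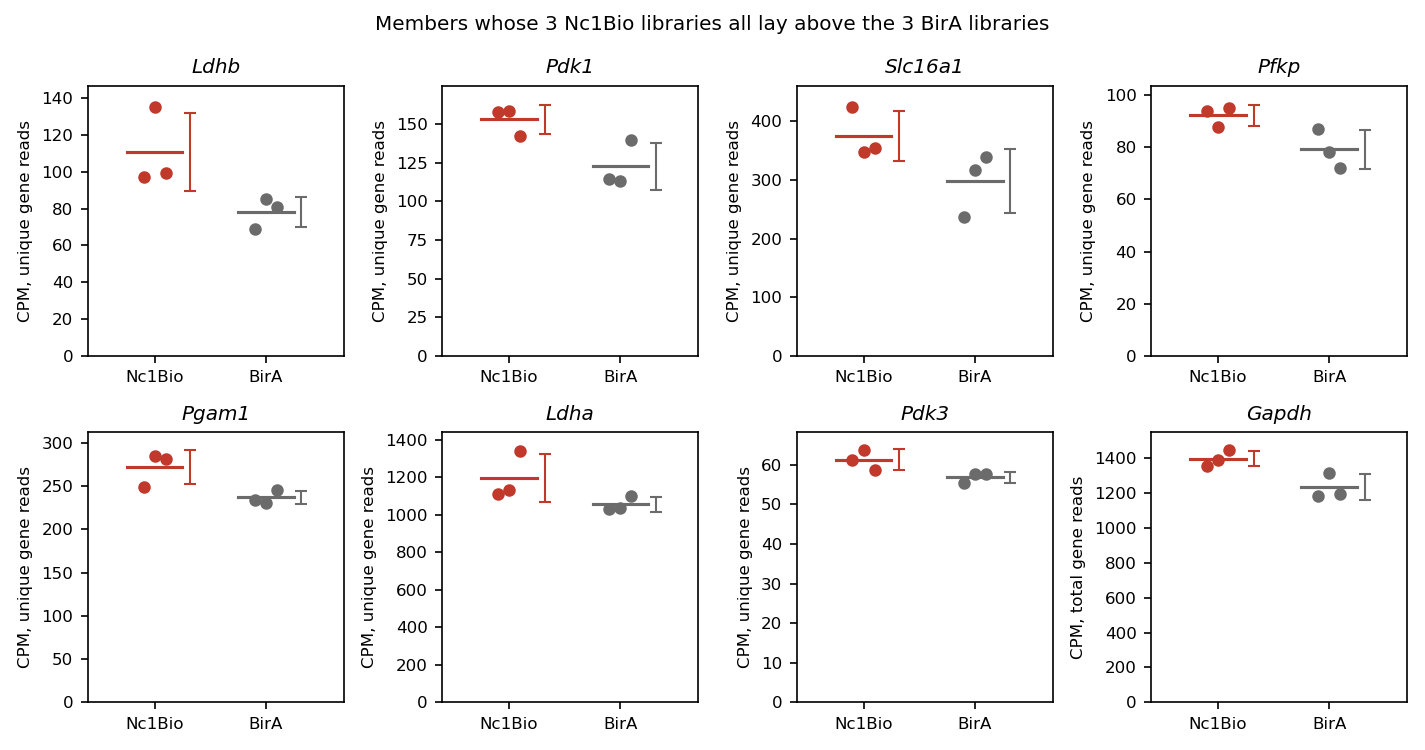
CPM (vertical axes, from 0) of the 7 genes whose Nc1Bio libraries all lay above the BirA libraries in unique gene reads, and of *Gapdh* in total gene reads, with 1 point per library, lines at the mean and bars of ± 1 SD (n = 3 each, Nc1Bio in red, BirA in grey). *Ldhb* has 97.3 to 135 CPM in Nc1Bio and 69.2 to 85.0 CPM in BirA, while for *Pdk3* the closest libraries are 58.7 and 57.7 CPM.

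Cell cycle genes had positive log2 fold changes in the same libraries. All 20 of 20 listed proliferation genes had a log2 fold change above 0 (median 0.24; 7 at an unadjusted edgeR p under 0.05, 0 called by edgeR and 2 by DESeq2), and their sum was 8343, 8305 and 8917 CPM in Nc1Bio, against 6279, 7334 and 7801 CPM in BirA. The part of dividing cells in the values of *Ldhb*, *Pdk1* and *Slc16a1* was not tested.

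Paralogue ratios within a library are not touched by scaling between libraries, and 5 were compared. They are ratios of CPM, not corrected for exon length, so they do not give the order of the genes as the TPM above do. The log2 ratio of *Ldha* over *Ldhb* was 3.44 ± 0.35 in Nc1Bio and 3.76 ± 0.14 in BirA (mean ± SD, 3 libraries per group), a difference of -0.32 (two-sided exact permutation p = 0.2, adjusted over the 5 ratios 0.5), and of -0.13 without Nc1Bio replicate 2. The ratio of *Pdk1* over *Pdk3* was 1.32 ± 0.043 in Nc1Bio and 1.10 ± 0.16 in BirA on the log2 scale (mean ± SD, 3 libraries per group), a difference of 0.22 in which the groups all but touched, at 1.278 in Nc1Bio replicate 3 and 1.277 in BirA replicate 3 (two-sided exact permutation p = 0.1, adjusted 0.5). With 3 against 3 libraries, 0.1 is the smallest p this test allows. The differences were 0.15 for *Pfkp* over *Pfkl* (exact permutation p = 0.3), 0.14 for *Slc2a3* over *Slc2a1* (p = 0.9) and -0.045 for *Hk2* over *Hk1* (p = 0.9), the last 2 of which changed sign when single libraries were left out.

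At the entry of the pathway the values pointed the other way without passing. Both glucose transporter genes, all 3 hexokinase genes and both genes of the bifunctional enzymes that make and break fructose-2,6-bisphosphate had log2 fold changes below 0, with medians of -0.36, -0.21 and -0.22. *Slc2a1*, which encodes the transporter GLUT1, had 16.8, 17.4 and 21.1 CPM in Nc1Bio, against 26.9, 28.0 and 16.2 CPM in BirA. The groups overlapped, because BirA replicate 3 was the lowest of all 6 libraries. Its log2 fold change was -0.36 (SE 0.23, 95% interval -0.90 to 0.17, adjusted p = 0.568 in edgeR), with -0.57 without BirA replicate 3 and -0.22 without BirA replicate 2. *Hk1*, the hexokinase of most tissues, had 155, 142 and 128 CPM in Nc1Bio, against 155, 169 and 147 CPM in BirA, with a log2 fold change of -0.15 (95% interval -0.39 to 0.096). *Pfkfb3* had 64.6 ± 10.9 CPM in Nc1Bio, against 67.5 ± 12.3 CPM in BirA (mean ± SD, 3 libraries per group), with -0.063 on the log2 scale (SE 0.17), and 0.067 without BirA replicate 2.

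All 7 of these entry genes were highest in BirA replicate 2, and 5 of them, *Slc2a3*, *Hk2*, *Hk3*, *Pfkfb3* and *Pfkfb4*, had a log2 fold change above 0 without it. The lactate carrier gene *Slc16a3* was highest there too. The sum of the granulocyte markers, *Hk3* left out, was 408, 3020 and 5806 CPM in Nc1Bio, against 509, 9644 and 484 CPM in BirA. Of its 10 markers 9 were detected in every library, and *Elane* was at 0 in 1. *S100a8* stood at 2285 CPM and *S100a9* at 2481 CPM in BirA replicate 2. *Hk3*, the hexokinase known from myeloid cells, had 4.75, 20.0 and 23.2 CPM in Nc1Bio, against 4.76, 46.9 and 3.61 CPM in BirA. Its highest and lowest libraries were both BirA libraries, and they differed 13.0-fold. *Slc2a3*, which encodes the transporter GLUT3, had 26.7, 41.2 and 58.5 CPM in Nc1Bio, against 31.2, 98.9 and 31.0 CPM in BirA. *Slc16a3* had 10.7, 14.2 and 31.6 CPM in Nc1Bio, against 26.3, 55.9 and 15.6 CPM in BirA, and *Pfkfb4* had 7.75, 8.88 and 11.6 CPM in Nc1Bio, against 8.09, 22.7 and 5.97 CPM in BirA. *Hk2*, the inducible hexokinase, had 28.6, 24.3 and 30.8 CPM in Nc1Bio, against 25.8, 48.0 and 25.8 CPM in BirA. The granulocyte sum was highest in BirA replicate 2 as well, and so was the sum of the macrophage markers. The macrophage sum was 287, 304 and 665 CPM in Nc1Bio, against 696, 1119 and 138 CPM in BirA. Most of it was *Lyz2*, with 486 CPM in BirA replicate 1 and 982 CPM in BirA replicate 2. Of the markers in it, *Lyz2* and *Adgre1* were highest in BirA replicate 2. The others, *C1qa*, *C1qb*, *C1qc*, *Csf1r*, *Cd68*, *Cd14*, *Fcgr1* and *Mertk*, were highest in BirA replicate 1. With all libraries the log2 fold changes were -0.21 for *Hk3*, -0.35 for *Slc2a3*, -0.79 for *Slc16a3*, -0.38 for *Pfkfb4* and -0.25 for *Hk2*, and without BirA replicate 2 they were 1.93, 0.44, -0.15, 0.42 and 0.11. The part of granulocyte or macrophage RNA in these values was not tested.

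**Figure D4:**
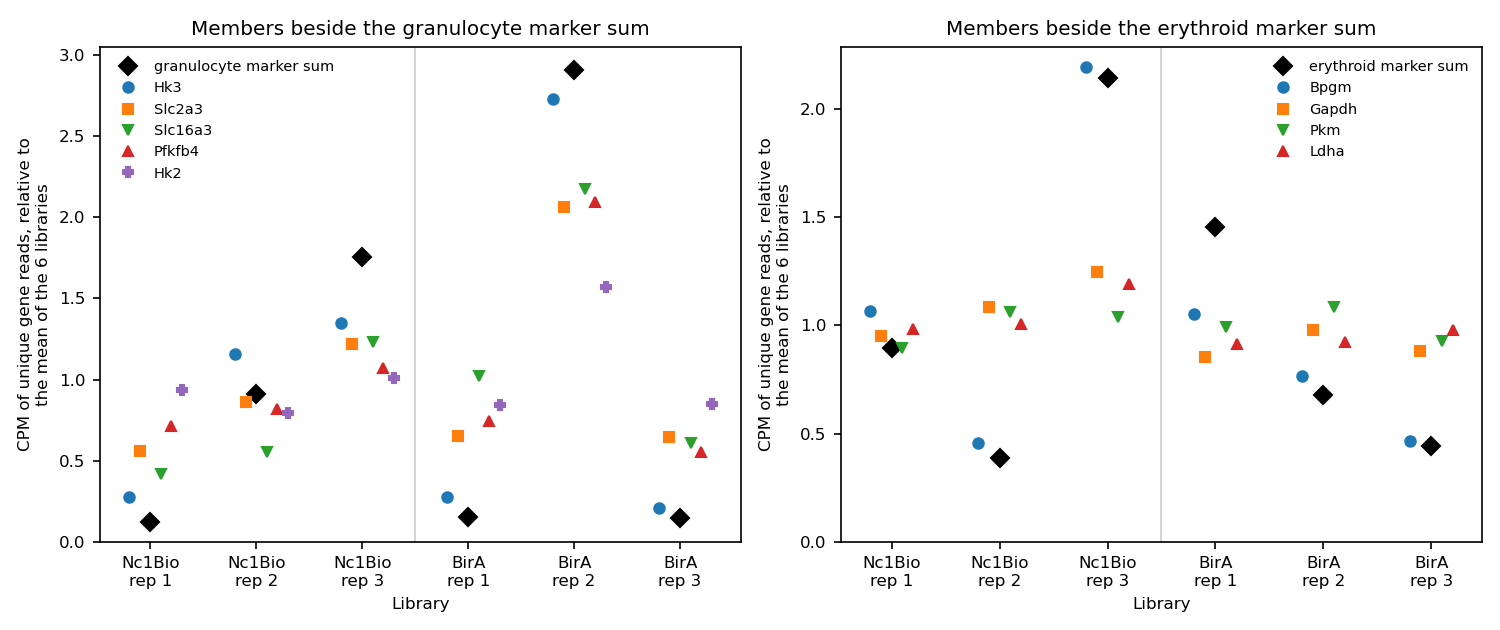
CPM of unique gene reads in each library relative to the mean of the 6 libraries (vertical axes), for the granulocyte marker sum (black) with 5 genes on the left and for the erythroid marker sum (black) with 4 genes on the right. *Hk3* and the granulocyte sum are both highest in BirA replicate 2, and *Bpgm* and the erythroid sum in Nc1Bio replicate 3. *Gapdh* (69.8 CPM) and *Ldha* (1342 CPM) are also highest in Nc1Bio replicate 3, while *Pkm* is near 1 there.

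In the middle of the pathway most log2 fold changes lay near 0. Of the 7 genes between glucose-6-phosphate and the triose phosphates 5 had a log2 fold change above 0, with a median of 0.018. *Gpi1*, the glucose-6-phosphate isomerase, had 664 ± 67.2 CPM in Nc1Bio, against 656 ± 80.8 CPM in BirA (mean ± SD, 3 libraries per group), with a log2 fold change of 0.018 (95% interval -0.27 to 0.30). *Aldoa*, the main aldolase, had 240, 304 and 299 CPM in Nc1Bio, against 376, 385 and 269 CPM in BirA. BirA replicate 3 lay among the Nc1Bio libraries, and the log2 fold change was -0.29 (SE 0.16, 95% interval -0.66 to 0.083, adjusted p = 0.512 in edgeR). Without BirA replicate 3 it was -0.43, and DESeq2 then gave an adjusted p of 0.0244, in a fit that called 735 of 12674 genes. *Tpi1*, which interconverts the triose phosphates, had 333 ± 22.0 CPM in Nc1Bio, against 309 ± 43.3 CPM in BirA, and *Pfkl* had 183 ± 8.18 CPM in Nc1Bio, against 173 ± 15.1 CPM in BirA (mean ± SD, 3 libraries per group), with 0.11 (SE 0.12) and 0.075 (SE 0.097) on the log2 scale. *Pfkm* had 37.6 ± 7.23 CPM in Nc1Bio, against 37.3 ± 2.57 CPM in BirA, and *Aldoc* had 3.64 ± 1.73 CPM in Nc1Bio, against 4.02 ± 1.5 CPM in BirA (mean ± SD, 3 libraries per group).

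Of the 7 tested genes of lower glycolysis 4 lay above 0, with a median log2 fold change of 0.11. *Pkm* had 829, 980 and 960 CPM in Nc1Bio, against 916, 1004 and 856 CPM in BirA. The groups lay over each other, and the log2 fold change was -0.0034 (SE 0.11). Its 95% interval of -0.25 to 0.24, uncorrected for the number of genes, bounds the difference of this enzyme gene between these libraries. *Pgk1* had 592 ± 60.8 CPM in Nc1Bio, against 546 ± 49.3 CPM in BirA (mean ± SD, 3 libraries per group; log2 fold change 0.11, 95% interval -0.15 to 0.38). *Eno1*, the enolase gene of most tissues, had 139, 136 and 145 CPM in Nc1Bio, against 161, 161 and 128 CPM in BirA (log2 fold change -0.10, SE 0.11, and -0.20 without BirA replicate 3). *Eno3*, the muscle enolase gene, had 3.08, 5.69 and 0.077 CPM in Nc1Bio, against 9.89, 5.19 and 6.39 CPM in BirA. The third Nc1Bio value is 1 read, and the log2 fold change of -1.27 (SE 0.92) was -0.70 without that library. *Eno2* had 1 to 9 reads a library and was not tested.

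*Bpgm*, the enzyme that makes 2,3-bisphosphoglycerate and is known for its role in red cells, was the most variable of the abundant members. It had 775, 331 and 1597 CPM in Nc1Bio, against 764, 558 and 337 CPM in BirA. The sum of the erythroid markers, *Bpgm* not among them, was 40772, 17667 and 97664 CPM in Nc1Bio, against 66151, 30799 and 20080 CPM in BirA. Most of that sum was haemoglobin, and the early erythroid genes *Klf1* and *Epor* were at or near 0 in every library. *Bpgm* and the sum were highest in Nc1Bio replicate 3 and low in Nc1Bio replicate 2 and BirA replicate 3. The log2 fold change was 0.70 (SE 0.52, 95% interval -0.50 to 1.91, adjusted p = 0.621 in edgeR), with 0.0031 without Nc1Bio replicate 3 and 1.10 without Nc1Bio replicate 2. The part of erythroid RNA in it was not tested. The summed CPM of the 33 genes were 6704, 6735 and 8172 in Nc1Bio, against 6517, 6944 and 6233 in BirA. Without *Bpgm* they were 5929, 6404 and 6575 in Nc1Bio, against 5752, 6386 and 5896 in BirA. The groups overlap with and without *Bpgm*.

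The genes of pyruvate import and of pyruvate dehydrogenase and its kinases had a median log2 fold change of 0.11, with 5 of 7 above 0. They include *Pdk1*, *Pdk2* and *Pdk3*, whose products block pyruvate dehydrogenase. *Pdk1* and *Pdk3* are among the 5 above 0, so the count is not one of pyruvate delivery. *Mpc1* and *Mpc2*, the 2 subunits of the mitochondrial pyruvate carrier, had 13.1 ± 1.60 and 51.3 ± 5.68 CPM in Nc1Bio, against 10.8 ± 1.99 and 44.6 ± 7.32 CPM in BirA (mean ± SD, 3 libraries per group), with log2 fold changes of 0.28 (SE 0.22) and 0.20 (SE 0.15). The subunit genes of the pyruvate dehydrogenase E1 enzyme were close to 0. *Pdha1* had 256 ± 23.0 CPM in Nc1Bio, against 264 ± 27.0 CPM in BirA (mean ± SD, 3 libraries per group; log2 fold change -0.042, 95% interval -0.30 to 0.22), and *Pdhb* had 149 ± 4.99 CPM in Nc1Bio, against 146 ± 13.5 CPM in BirA (mean ± SD, 3 libraries per group; log2 fold change 0.033, 95% interval -0.19 to 0.26). *Pdk2* had 13.9, 13.5 and 11.8 CPM in Nc1Bio, against 11.6, 19.9 and 16.9 CPM in BirA (log2 fold change -0.31, SE 0.23). Without BirA replicate 2 it was -0.12 and without BirA replicate 1 it was -0.49, so it lay below 0 each time, while *Pdk1* and *Pdk3* lay above 0.

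Many of these genes have processed pseudogenes, and the share of reads that the tables count as unique to a gene shows how far that touched them. Only 3.04% of the *Gapdh* reads were unique, 17.9% of *Mpc1*, 24.6% of *Eno1*, 53.0% of *Slc2a1* and 66.5% of *Pkm*. In all, 11 of the 33 genes were under 90%, and 21 were at 99% or more, *Ldhb*, *Pdk1*, *Pdk3* and *Slc16a1* among them. *Gapdh* had 641, 801 and 905 unique against 22895, 25646 and 26290 total reads in Nc1Bio, and 664, 857 and 712 unique against 23028, 28839 and 24147 total reads in BirA. Its level in unique gene reads, 61.3 ± 8.21 CPM in Nc1Bio and 50.8 ± 3.65 CPM in BirA, therefore stands far below its level in total gene reads, 1396 ± 44.6 CPM in Nc1Bio and 1232 ± 73.4 CPM in BirA (mean ± SD, 3 libraries per group). In total gene reads it had 1355, 1390 and 1444 CPM in Nc1Bio, against 1184, 1316 and 1195 CPM in BirA, without overlap. The log2 fold change of *Gapdh* was 0.27 (SE 0.12) in unique and 0.18 (SE 0.089) in total gene reads, with edgeR adjusted p of 0.444 and 0.474.

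**Figure D5:**
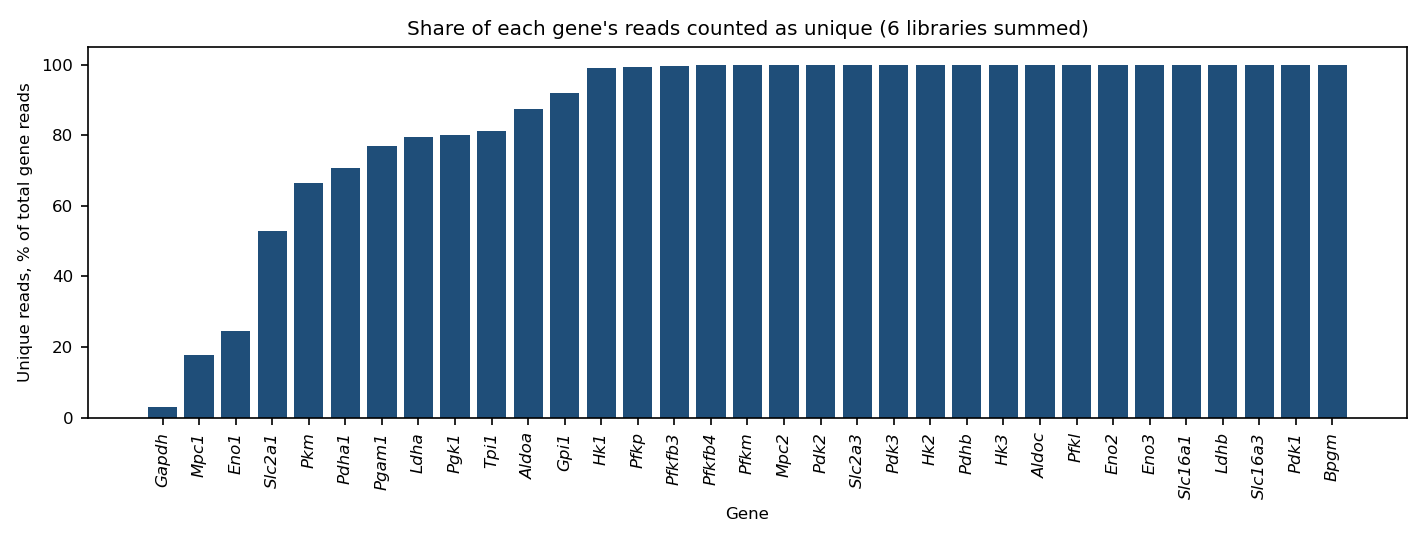
Unique gene reads as a percentage of total gene reads (vertical axis, 6 libraries summed) for each of the 33 genes (horizontal axis), from low to high. *Gapdh* stands at 3.04% and *Mpc1* at 17.9%, while 21 genes reach 99% or more.

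The choice of column moved levels far more than differences for *Gapdh*, *Mpc1* and *Eno1*, whose unique shares were lowest. Between unique and total gene reads the log2 fold change moved by less than 0.05 for 30 of the 32 genes. Most of these had nearly all reads counted as unique, so both columns held nearly the same reads and could hardly differ. The larger moves were those of *Mpc1* (0.28 in unique and 0.14 in total gene reads) and *Gapdh* (0.27 in unique and 0.18 in total gene reads). Only the sign of *Pkm* differed, with 0.0023 in total gene reads. The sources used here do not say how reads with several placements were assigned, so the levels of the 11 genes with low unique shares are uncertain.

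Genes that neighbour the list in metabolism also gave 0 calls in edgeR. Of 42 further genes of the pathway, among them pyruvate dehydrogenase subunits, phosphatases, gluconeogenic enzymes and tissue-specific isoforms, 28 were tested, 15 lay above 0, and edgeR and DESeq2 called 0. Their median log2 fold change was 0.0087, and 1 had an unadjusted p under 0.05, the transporter gene *Slc2a8* (2.32 ± 0.58 CPM in Nc1Bio and 6.19 ± 2.52 CPM in BirA, mean ± SD, 3 libraries per group; log2 fold change -1.41, adjusted p = 0.292 in edgeR). The liver and red cell pyruvate kinase gene *Pklr* and the testis genes *Pgk2* and *Pdha2* had 0 reads in all 6 libraries. Of 8 pentose phosphate genes 6 lay above 0, edgeR and DESeq2 called 0, and *Tkt*, the transketolase, had an unadjusted p under 0.05 (log2 fold change 0.28, adjusted p = 0.361 in edgeR).

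Of 20 citric acid cycle genes 18 lay above 0, their median was 0.12 on the log2 scale, and edgeR and DESeq2 called 0. The 2 with an unadjusted edgeR p under 0.05 were *Suclg2*, a subunit of succinyl-CoA synthetase (log2 fold change 0.38, adjusted p = 0.263 in edgeR), and *Idh3a*, a subunit of isocitrate dehydrogenase (0.31, adjusted p = 0.343 in edgeR). Of 20 tested genes known as regulators of glycolysis 5 lay above 0 and 15 below, with a median of -0.14 and 0 called by edgeR. *Myc* had 293 ± 28.5 CPM in Nc1Bio, against 196 ± 9.93 CPM in BirA (mean ± SD, 3 libraries per group; log2 fold change 0.59, adjusted p = 0.109 in edgeR), and DESeq2 called it (adjusted p = 4.08e-05). *Hif1a* had 31.2 ± 0.88 CPM in Nc1Bio, against 40.4 ± 1.07 CPM in BirA (mean ± SD, 3 libraries per group; log2 fold change -0.37, adjusted p = 0.280 in edgeR). *Txnip*, which restrains glucose uptake and whose transcript is known to follow glucose, had 28.5 ± 8.36 CPM in Nc1Bio, against 44.9 ± 13.3 CPM in BirA (mean ± SD, 3 libraries per group; log2 fold change -0.66, adjusted p = 0.404 in edgeR).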

How the data were processed

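Poly(A) RNA-seq of 6 DN thymocyte libraries, 3 Nc1Bio and 3 BirA, was analysed from whole-number counts of reads per gene that the authors deposited, 1 table a library, in unique and total, gene, exon and intron columns. The methods of the study name cutadapt, STAR, featureCounts and DESeq2, but the deposited layout is not that of featureCounts, and the sources used here do not name the program that made the counts. The build is GRCm38, per the submitters' processing notes, and total gene reads exceed unique ones. The deposited RPKM column was not used, and the deposited TPM column served only as a check on the TPM computed here.

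Unique gene reads were filtered by filterByExpr (12224 of 41457 genes), scaled by TMM and tested with the quasi-likelihood test of edgeR 4.0.16 in R 4.3.3, with genotype as the single term. p-values were adjusted by Benjamini-Hochberg over all tested genes, with calls at 0.05. CPM use TMM-scaled library sizes. The SE is the log2 fold change divided by the square root of F, and intervals are 95%. DESeq2 1.42.0, limma-voom (limma 3.58.1), total gene reads, exon reads, RLE scaling, no filter, a filter of 1 CPM in 3 libraries, the threshold of the study (adjusted p under 0.01 and a log2 fold change beyond 0.5), haemoglobin genes left out, the replicate number as a block and single libraries left out were alternatives. Added after seeing the data were combinations of total gene reads with the block, with haemoglobin left out and with single libraries left out, DESeq2 with single libraries left out, and Nc1Bio replicate 3 and BirA replicate 2 left out together. The steps were tested on simulated data. Ratios were compared by exact permutation tests. Members and lists were chosen with earlier results of these data known. Fold changes with SE and adjusted p were planned for members of unadjusted p under 0.05 and for the gene that opens each group. The other members given with values were chosen after these were seen. Counts are reads, not molecules, so errors cover counting and the spread between libraries.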

Additional observations from a re-analysis of the deposited data

How the results depend on the processing

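The call of 0 members held in 32 of 33 alternatives, the threshold of the study included. The exception was DESeq2 without BirA replicate 3, which called 2 of 32 (*Pdk1* at a log2 fold change of 0.42 and *Aldoa* at -0.44). That fit called 735 of the 12674 genes it tested. The number at an unadjusted p under 0.05 was 4 in DESeq2 on either column, 1 without Nc1Bio replicate 3 and BirA replicate 2, and up to 9 with single libraries left out in any fit. The share over all genes was 12.5% in DESeq2 on either column. It was not computed for the fits with libraries left out. Over all genes edgeR called 1, against 156 without a filter, 328 in DESeq2, 348 in DESeq2 on total gene reads, 168 at the threshold of the study, 0 without the 2 libraries named, 0 to 2 in edgeR and 166 to 735 in DESeq2 with single libraries left out. The sign was kept in all 32 alternatives for 20 of 32 members. It changed most often for *Pfkm*, in 13 of the 32, and in 10 each for *Hk3* and *Pkm*. For *Pfkfb3* and *Aldoc* it changed in 7 each, and for *Gpi1* and *Pdha1* in 6 each. The others were *Slc2a3*, *Hk2*, *Pfkfb4* and *Pdhb* with 4 each and *Bpgm* with 2.

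Correlations of deviations were 0.33, 0.12 and -0.099 for libraries of the same replicate number, and -0.39 to 0.25 for unlike numbers. So few pairs cannot decide whether replicate numbers pair the libraries. With the replicate block edgeR called 2 genes, and 0 on total gene reads, and 0 members in both.

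*Hk3* was at 0.44 in limma-voom, 0.39 with the replicate block on unique and on total gene reads, and 1.56 without the 2 libraries. There, *Slc2a3* was at 0.13, *Hk2* at 0.035, *Pfkfb4* at 0.24 and *Pkm* at 0.032. *Pkm* was at 0.0023 on total gene reads, 0.0015 in DESeq2 on them and 0.0024 with the block. With single libraries left out, in edgeR on either column and in DESeq2, the ranges were -0.67 to 0.44 for *Slc2a3*, -0.41 to 0.11 for *Hk2*, -0.70 to 1.93 for *Hk3*, -0.077 to 0.11 for *Gpi1*, -0.71 to 0.42 for *Pfkfb4*, -0.060 to 0.073 for *Pkm* and -0.012 to 1.11 for *Bpgm*. The difference in log2 ratio ranged from -0.19 to 0.20 for *Hk2* over *Hk1* and from -0.25 to 0.55 for *Slc2a3* over *Slc2a1*. Summed member CPM were 7756 ± 692 in Nc1Bio and 7138 ± 384 in BirA on total gene reads (mean ± SD, 3 libraries per group). On unique gene reads they were 7204 ± 839 in Nc1Bio and 6565 ± 358 in BirA. Causes were not tested.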
